A study of Mus musculus with 4 samples.

Results

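Heat shock proteins and molecular chaperones were read as a group in regulatory T cells sorted by Nrp1 (neuropilin-1), a cell-surface protein that binds semaphorins and VEGF. The group held every gene whose symbol starts with Hspa, Hspb, Hspd, Hspe, Hsph, Hsp90, Dnaja, Dnajb, Dnajc, or Cct or Bag followed by a digit, and that had a probe set on the array annotated to it alone. That rule gave 87 genes on 209 probe sets, of 18193 genes with a probe set of their own among 45101 probe sets. The rule selects by name and uses no measured value, but it was chosen with earlier results of these data known. Each gene was read from its brightest probe set, and 70 of the 87 genes lay at or above the median level of the array (an intensity of 72.4) and were tested, among 10204 such genes in all. The 17 dimmer genes are described separately, because no test was made on them.

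RNA came from spleen cells of Balb/c mice that express GFP along with Foxp3, the master regulator of regulatory T cells, and the cells had been sorted on CD4, Foxp3 and Nrp1. Both sorted groups came from reporter mice without a treatment named in the labels. There were 2 arrays of Nrp1-negative and 2 of Nrp1-positive cells, numbered replicate 1 and replicate 2 in each group, from mice of 4 to 6 weeks. The exception was the array titled Nrp1-negative replicate 1, with an age of 4 to 8 weeks and with a source name and cell type that read as positive. It was grouped by its title. The title matches the RNA: Nrp1 had intensities of 339 and 1223 in the Nrp1-negative arrays and of 9344 and 7745 in the Nrp1-positive arrays, replicate 1 first. The groups did not overlap.

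Chaperones bind unfolded or partly folded proteins and help them reach or keep their native shape. HSP70 proteins do so in cycles of ATP hydrolysis that DNAJ proteins (the HSP40 family) start and that BAG and HSP110 proteins, which release the nucleotide, complete; HSP90 acts later on kinases, receptors and other clients, and the ring-shaped chaperonins (HSP60 with HSP10 in mitochondria, CCT in the cytosol) enclose their substrates. Some members are always made in quantity, as Hspa8 is in lymphocytes, while others, above all Hspa1a and Hspa1b, are switched on by heat shock factor when unfolded protein accumulates, for example after heat or handling stress.

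The replicate number marked more than a repeat. The deposited arrays of replicate 1 and of replicate 2 had been scaled to different means, and after scaling to 1 mean the 12 probe sets for spiked poly-A control transcripts lay between 730 and 24657 on the arrays of replicate 1 and between 1.29 and 36.4 on those of replicate 2. For Gapdh, the 3-prime control signal divided by the 5-prime one came to 1.74 and 1.54 in replicate 1 and to 0.763 and 0.711 in replicate 2, Nrp1-negative array first. Myeloid and conventional dendritic markers were called higher in replicate 2 for 8 of 9 genes, beside 10.0% of all genes. In replicate 1, Itgam (32.2 and 68.1), Itgax (72.1 and 51.5) and Cd14 (12.5 and 45.8) lay under the median level of 72.4. They were therefore tested only because of their replicate 2 values. The summed intensity of the 9 genes was 4513 and 5550 in replicate 1 and 20557 and 17907 in replicate 2, with none of the 9 at 0. The control signals, the scaling and the myeloid markers go with the replicate number and cannot be told apart from one another or from a difference between the cells. Of the T cell and regulatory T cell markers, Cd4, on which the cells were sorted, had 2199 and 2261 in replicate 1 and 723 and 755 in replicate 2 (-1.57, adjusted p 0.000320 in limma). Cd3e was lower in replicate 2 too (-0.51), Ctla4 was higher (0.55), and Il2ra (-0.13) and Cd3g (-0.18) did not pass. All of these lay above the median level, whereas the Foxp3 probe set was dim on all 4 arrays (4.45, 2.16, 36.4 and 19.9, replicate 1 first). Each number holds 1 array of each sorted group, so Nrp1 differences are given within each number too.

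**Figure D1:**
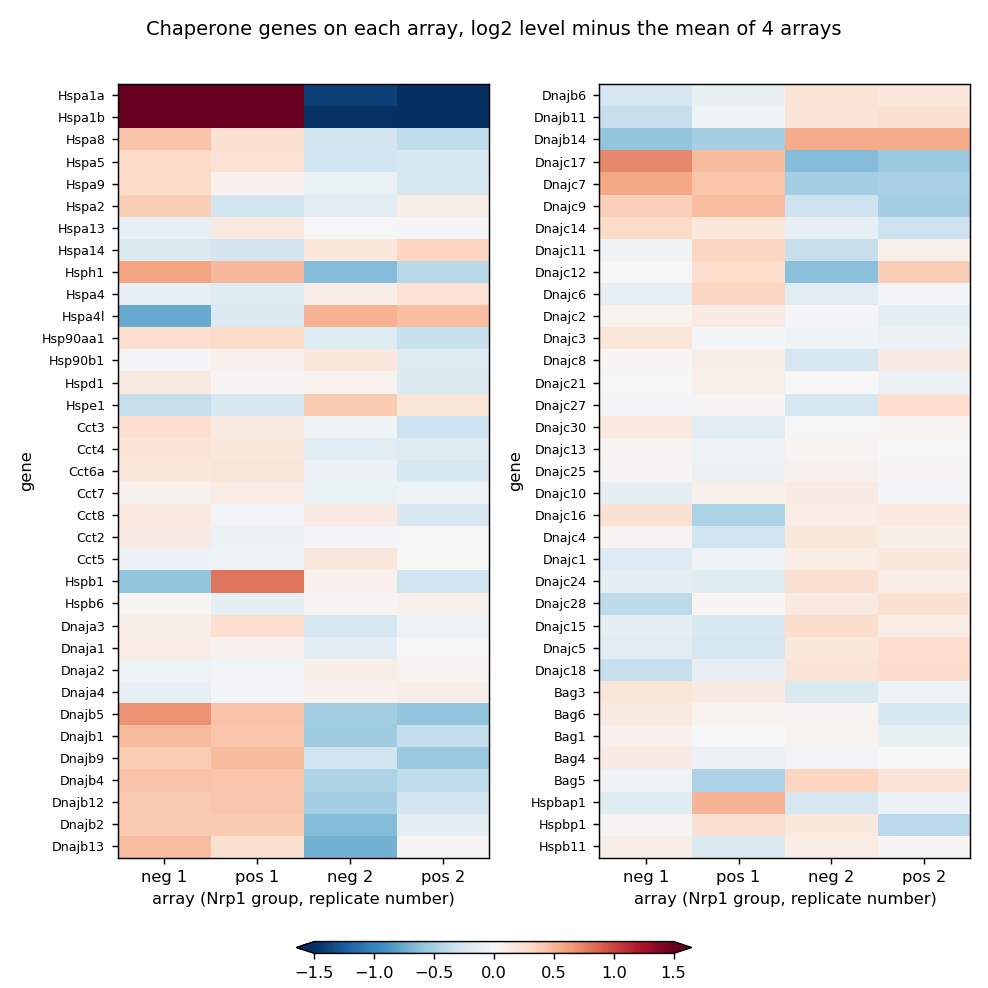
Heat map of the 70 tested chaperone genes (rows, grouped by family and ordered by the replicate difference) on the 4 arrays (columns, Nrp1-negative or Nrp1-positive with the replicate number). Colour is the log2 level minus the mean of the 4 arrays, cut at the ends of the scale; Hspa1a and Hspa1b are dark red on both arrays of replicate 1 and dark blue on both arrays of replicate 2, and colours follow the replicate number more often than the Nrp1 group.

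The first comparison asked whether cells with Nrp1 differ from cells without it in their chaperones. No chaperone gene passed the test. The median difference of the 70 genes, Nrp1-positive minus Nrp1-negative, was -0.03 on the log2 scale, beside 0.00 for all genes tested. It was -0.02 within replicate 1 and -0.02 within replicate 2. In limma without a block, 0 of 70 chaperone genes and 0 of 10204 genes (0% higher, 0% lower) had a Benjamini-Hochberg adjusted p below 0.05, and 0 chaperone genes and 150 genes had an unadjusted p below that value. With the replicate number as a block, limma called 36 genes upward (0.353%) and 24 downward (0.235%) in cells with Nrp1. No chaperone gene was among them, the lowest adjusted p of a chaperone gene being 0.388. Nrp1 itself had an adjusted p of 0.00374 in that limma fit. Without the block its adjusted p in limma was 0.9998, so that fit did not call even Nrp1.

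On their brightest probe sets, the main cytosolic chaperones had nearly equal levels in the 2 sorted groups. Hspa8, the constitutive cytosolic HSP70, had intensities of 39949 and 24483 in Nrp1-negative cells and 34611 and 22721 in Nrp1-positive cells, replicate 1 first. The groups overlapped, and the difference with the block was -0.16 (95% interval -0.44 to 0.12). For Hsp90aa1, the stress-responsive cytosolic HSP90, the values were 14396 and 10562 without Nrp1 and 14754 and 9636 with it, a difference of -0.05 (-0.30 to 0.20). The next brightest Hsp90aa1 probe sets turned with the number. They gave 0.60 and 0.63 in replicate 1 but -0.24 and -0.26 in replicate 2. Dnajb1, the DNAJ partner of inducible HSP70, had 4870 and 2414 against 4691 and 2717, a difference of 0.06 (-0.18 to 0.30). In each of these 3 genes the arrays paired by replicate number and not by Nrp1.

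Chaperones of the endoplasmic reticulum and of mitochondria did not pass either. Hspa5 (BiP), the HSP70 of the endoplasmic reticulum and a standard readout of the unfolded protein response, had 18428 and 12212 without Nrp1 and 17466 and 12802 with it, a difference of 0.00 (-0.26 to 0.25). Hsp90b1 (GRP94), its HSP90 counterpart, had 6260 and 7160 against 6716 and 5589, a difference of -0.13 (-0.41 to 0.15). A second, dimmer Hsp90b1 probe set went the other way without overlap, with 1901 and 1798 against 2284 and 2061 (0.23). Mitochondrial Hspd1 (HSP60) had 4252 and 4028 against 3942 and 3365; both Nrp1-positive arrays lay below both Nrp1-negative arrays, and the difference was -0.18 (-0.42 to 0.05). Over all 70 genes the standard error of the Nrp1 difference with the block was between 0.10 and 0.40. For 51 of the 70 (72.9%, beside 63.5% of all genes) the 95% interval lay within 1.5-fold in both directions. It lay within 2-fold for 67 (95.7%, beside 87.6% of all genes). Each interval gives the differences compatible with these arrays, so small Nrp1 differences are not excluded with this number of arrays.

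The genes nearest to a Nrp1 difference were a DNAJ protein and a chaperonin subunit. Dnajc12, a cofactor for folding of aromatic amino acid hydroxylases, had 391 and 245 without Nrp1 and 466 and 507 with it. The groups did not overlap, and the difference of 0.62 had an adjusted p of 0.388 in limma with the block. Cct8, a subunit of the cytosolic chaperonin, had 4886 and 4798 without Nrp1 and 4258 and 3736 with it, again without overlap, at -0.28 with an adjusted p of 0.444. Of the 70 genes these 2 (2.86%) were the only ones with an unadjusted p below 0.05 in that fit, beside 887 of all 10204 genes (8.69%).

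Separation of the 4 values by Nrp1 was no more frequent among chaperones than among all genes. It was upward in Nrp1-positive cells for 6 of 70 genes (12.0% of all genes), namely Dnajc6, Dnajc8, Dnajc11, Dnajc12, Dnajc27 and Hspbap1. Downward separation was also found for 6 (9.06% of all genes), namely Bag1, Cct8, Dnajc13, Dnajc25, Hspb11 and Hspd1. The difference had the same sign in both replicate numbers for 33 of 70 chaperone genes (53.9% of all genes).

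Within a replicate number a few chaperones differed by 1.5-fold or more, and none did so in the same direction in both. In replicate 1, 3 genes were higher in Nrp1-positive cells by that size (5.96% of all genes) and 2 were lower (3.83% of all genes). In replicate 2, 2 were higher (3.81% of all genes) and 1 was lower (3.60% of all genes). Hspb1 (HSP25), a small heat shock protein that holds unfolded proteins without ATP, had the largest, with 89.9 without and 264 with Nrp1 in replicate 1 but 150 and 113 in replicate 2. Hspa1a likewise was higher in the Nrp1-positive array of replicate 1 by 0.71 and lower in that of replicate 2 by 0.95. Hspa1b showed the same turn in smaller steps, 0.46 and -0.50. Hspbap1 (0.69 and 0.17) and Dnajc12 (0.24 and 1.00) were above in both numbers, each by 1.5-fold in 1 of them. The other genes beyond 1.5-fold were Dnajc16 (-0.70) and Hspa2 (-0.66) below in replicate 1 and Dnajb13 (0.73) above in replicate 2. With 1 array per sorted group in each number, the difference between the 2 numbers was not tested.

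**Figure D2:**
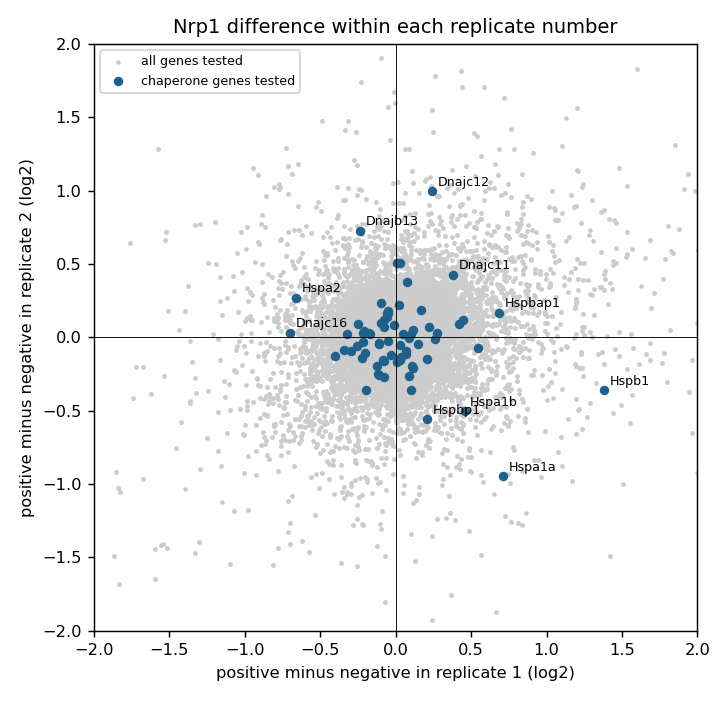
Nrp1-positive minus Nrp1-negative difference on the log2 scale within replicate 1 (horizontal) and within replicate 2 (vertical) for the 70 chaperone genes (blue) over all 10204 genes tested (grey, of which 42 lie outside the plotted range). The blue points sit around the origin; Hspa1a, Hspa1b and Hspb1 lie at the lower right, higher in Nrp1-positive cells in replicate 1 and lower in replicate 2, and Dnajc12 and Dnajc11 at the upper right.

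Below the median level lay 17 chaperone genes, which were not tested. They were 3 of 11 HSP70 genes, 5 of 7 small heat shock proteins, 3 of 13 DNAJB, 3 of 27 DNAJC, 2 of 9 CCT and 1 of 6 BAG genes. Hspb6 lay just inside the limit, at percentile 52.9, and Hspb8 (49.2) and Dnajc22 (48.9) just outside. Dnajc22 was the dim gene with the steadiest Nrp1 difference, singled out after its values were seen. It had 148 and 104 in Nrp1-negative cells against 11.0 and 6.64 in Nrp1-positive cells. Both Nrp1-positive values lay below both others, but also below the pseudocount of 18.3 and far under the filter level of 72.4, so no size is given for the difference. A further, dimmer Dnajc22 probe set read 25.8 and 25.03 without Nrp1 and 2.41 and 30.02 with it, and so did not repeat the difference in replicate 2.

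The second comparison set the arrays of replicate 2 against those of replicate 1. Each number held 1 array of each sorted group. The p-values of this comparison therefore measure the spread between sorted groups within a number, not between independent preparations. Chaperones differed here, and more often downward. In limma, 17 of the 70 genes (24.3%) were lower in replicate 2 at an adjusted p below 0.05, where 9.64% of all genes were, and 6 (8.57%) were higher, where 10.0% of all genes were. The median difference of the chaperone genes was -0.14 on the log2 scale beside -0.01 for all genes. It was -0.10 in Nrp1-negative and -0.15 in Nrp1-positive cells. With the Nrp1 group as a term the counts were 20 lower (12.4% of all genes) and 9 higher (13.5% of all genes). All 4 values were separated by replicate number downward in 28 genes (32.2% of all genes) and upward in 18 (31.3% of all genes).

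Scaling moved the balance of directions. With the arrays brought to 1 median in place of 1 trimmed mean, the median of all genes rose to 0.15 and that of the chaperone genes to 0.02. The split of chaperone calls was then 14 lower and 11 higher, and that of all genes 534 lower and 1747 higher, where the trimmed mean gave 984 lower and 1020 higher. Across scaling, the filter, the probe set rule, the variance trend, the Nrp1 term and each left-out array, each changed alone, 10 of the 23 chaperone calls were made every time. These were Hspa1a, Hspa1b, Hsph1, Dnajb1, Dnajb4, Dnajb9, Dnajc7, Dnajc9 and Dnajc17, all lower in replicate 2, and Dnajb14, which was higher. With the Nrp1 term and no variance trend together, Dnajb1, Dnajb4, Dnajb9 and Dnajc9 lost the call and the other 6 kept it.

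**Figure D3:**
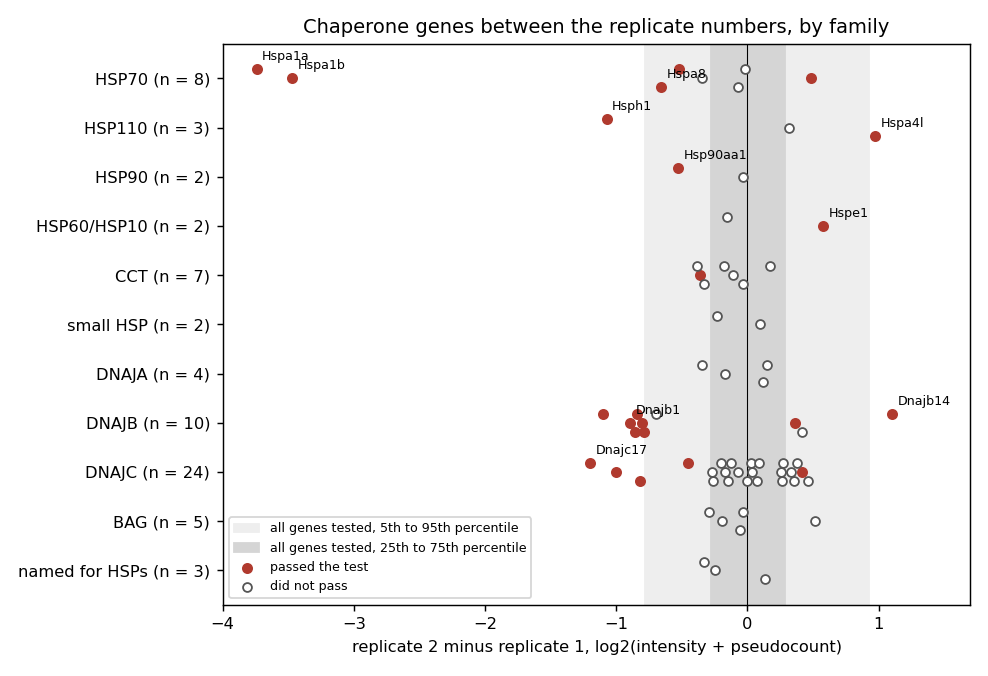
Replicate 2 minus replicate 1 on the log2 scale for each of the 70 tested chaperone genes (points) by family (rows, with the number of genes); filled points passed the test in limma, and the grey bands hold the 25th to 75th and the 5th to 95th percentiles of all genes tested. Hspa1a and Hspa1b lie far to the left at -3.74 and -3.47, and 6 of 10 DNAJB genes form a cluster between -1.10 and -0.79.

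The inducible HSP70 genes differed most. Hspa1a had intensities of 706 and 1169 on the arrays of replicate 1 and of 77.9 and 31.6 on those of replicate 2, Nrp1-negative array first. The replicates did not overlap, with means of 938 ± 327 (SD, n = 2) and 54.8 ± 32.8, and the log2 difference of -3.74 (SE 0.37) was 13.4-fold with an adjusted p of 0.000913 in limma. Of the 2 values in replicate 2, that of the Nrp1-positive array was under the intensity of 72.4 that set the filter, so the fold understates any larger one. Hspa1b had 6114 and 8399 in replicate 1 and 753 and 525 in replicate 2. Again both arrays of replicate 1 stood far above both of replicate 2, by 11.1-fold (log2 difference -3.47, SE 0.20, adjusted p 0.000131 in limma). All 3 Hspa1b probe sets moved alike, from -3.47 to -3.71. Among 10204 genes, only 1 lay lower than Hspa1a and 3 lay lower than Hspa1b in this difference.

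**Figure D4:**
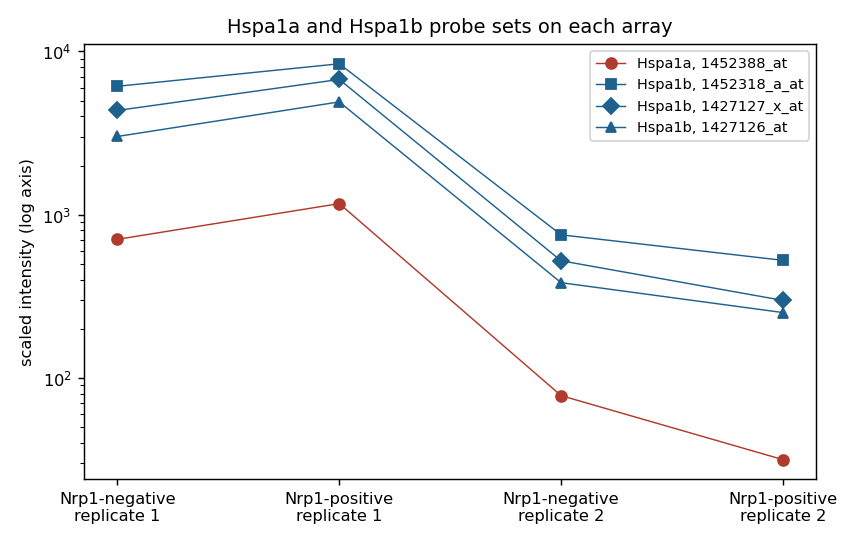
Scaled intensity (log axis) of the Hspa1a probe set (red) and the 3 Hspa1b probe sets (blue) on each of the 4 arrays, joined by lines to follow a probe set. Each probe set is high on both arrays of replicate 1 and low on both of replicate 2, and each is higher in Nrp1-positive than in Nrp1-negative cells in replicate 1 and lower in replicate 2.

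Hspa1a and Hspa1b are near-identical neighbouring genes that code for the same inducible HSP70, and a probe for one can pick up transcripts of the other, so the probe sets do not tell their products apart with certainty. Their upstream sequences are shown because both genes moved together. That of Hsph1, which moved the same way, was taken from among stretches that hold a motif for heat shock factor. The capitals mark the letters GAANNTTC or TTCNNGAA, 2 facing GAA units of the element that heat shock factor binds, and each line gives the 250 bases before the RefSeq start site (GRCm38.p6, minus strand, 5′ to 3′). Hspa1a lies at chr17:34972157-34972406, Hspa1b at chr17:34959239-34959488 and Hsph1 at chr5:149636337-149636586.
Hspa1a: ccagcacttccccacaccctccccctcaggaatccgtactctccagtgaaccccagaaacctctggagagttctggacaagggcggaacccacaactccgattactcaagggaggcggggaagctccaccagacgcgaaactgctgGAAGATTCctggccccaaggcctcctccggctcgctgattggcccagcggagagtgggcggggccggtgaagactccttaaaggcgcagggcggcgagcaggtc
Hspa1b: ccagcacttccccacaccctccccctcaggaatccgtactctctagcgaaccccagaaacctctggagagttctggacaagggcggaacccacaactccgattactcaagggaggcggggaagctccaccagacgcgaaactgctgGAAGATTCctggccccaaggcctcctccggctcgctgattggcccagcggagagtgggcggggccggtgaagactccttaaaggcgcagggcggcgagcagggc
Hsph1: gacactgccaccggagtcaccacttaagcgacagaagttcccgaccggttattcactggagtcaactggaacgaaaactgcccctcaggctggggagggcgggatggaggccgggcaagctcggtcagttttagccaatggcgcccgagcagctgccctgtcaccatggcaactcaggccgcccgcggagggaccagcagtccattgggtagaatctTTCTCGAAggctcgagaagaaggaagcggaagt
The Hspa1a and Hspa1b stretches were identical at 247 of 250 bases. Both hold 1 motif, beginning 104 bases before the start, and Hsph1 holds 1 that begins 33 bases before it. Stretches without a motif are not printed. Of 14 genes called lower and present in the RefSeq promoter table, 4 hold a motif. Dnajc17 (-1.20) and Dnajb5 (-1.10) differed by more than Hsph1 (-1.07) and hold none.

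The HSP110 genes, which act as nucleotide exchange factors for HSP70, went in different directions. Hsph1 had 3909 and 3644 in replicate 1 and 1643 and 1935 in replicate 2, without overlap. It was 2.11-fold lower in replicate 2 (-1.07, SE 0.12, adjusted p 0.00145 in limma), while a dimmer Hsph1 probe set gave -0.05. Hspa4l rose instead, from 397 and 589 to 993 and 943, by 0.97 (SE 0.20, adjusted p 0.0134), but its other 4 probe sets above the filter ranged from -0.34 to 0.40. Hspa4 gave 0.32 on its brightest probe set and did not pass (adjusted p 0.0634). With 1 median it had 0.48 and passed (adjusted p 0.0151). Its other 3 probe sets gave -0.60 to -0.78, and the mean of its probe sets gave -0.44 with an adjusted p of 0.0406.

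The constitutive HSP70 genes changed less than the inducible pair. Hspa8 was lower in replicate 2, with 24483 and 22721 against 39949 and 34611, without overlap, a log2 difference of -0.66 (SE 0.11, adjusted p 0.00792 in limma). Hspa5 fell from 18428 and 17466 to 12212 and 12802, a difference of -0.52 (SE 0.10, adjusted p 0.0106). Both genes are among the 212 in the top percentile of level, whose median was -0.36 with quartiles of -0.58 and -0.15. Hspa8 is also among the 93 genes tested with a mean intensity of 20000 or more, of which 91 had lower values in replicate 2, with a median of -0.52 and quartiles of -0.74 and -0.34. After quantile normalization, which gives all arrays one distribution, Hspa8 had -0.20 with an adjusted p of 0.143 and Hspa5 -0.29 with 0.0346. Hspa14, an HSP70 relative at the ribosome, rose from 1215 and 1167 to 1578 and 1772 (0.48, SE 0.12, adjusted p 0.0278). Mitochondrial Hspa9 had -0.35 and did not pass, though it did with the Nrp1 group as a term (adjusted p 0.0403 in limma). Hspa13 and Hspa2 had -0.02 and -0.07 and did not pass.

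**Figure D5:**
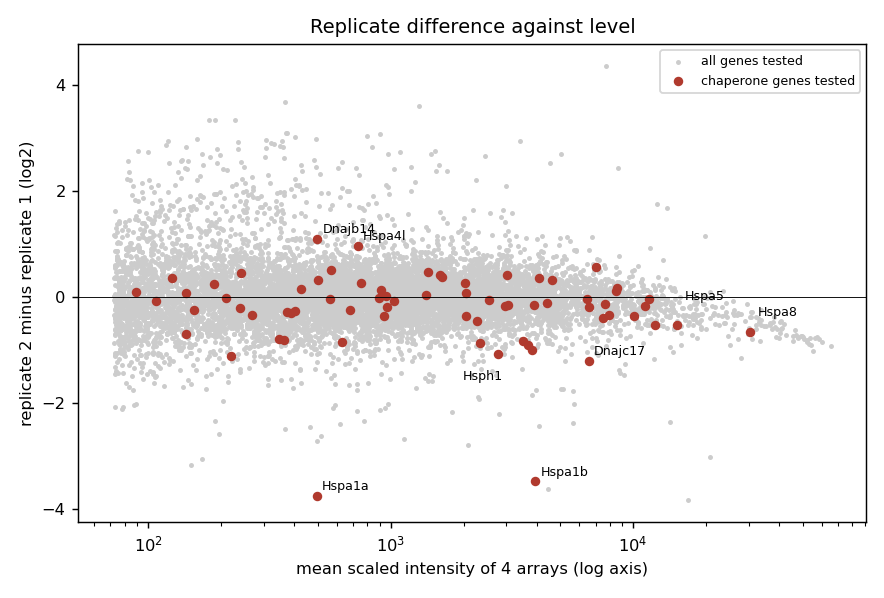
Replicate 2 minus replicate 1 on the log2 scale against the mean scaled intensity of the 4 arrays (log axis) for the 70 chaperone genes (red) over all 10204 genes tested (grey). At the bright end the grey cloud bends below 0 and Hspa8 and Hspa5 lie within it, whereas Hspa1a and Hspa1b lie far below most genes of their own level.

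Of the HSP90 genes, Hsp90aa1 was lower in replicate 2 on its brightest probe set, with 10562 and 9636 against 14396 and 14754. The replicates did not overlap there (-0.53, SE 0.10, adjusted p 0.0107 in limma). Hsp90aa1 too is among the 212 genes in the top percentile of level, whose quartiles were -0.58 and -0.15. After quantile normalization it had -0.36 with an adjusted p of 0.0220 in limma. Another Hsp90aa1 probe set gave -0.81 and the next gave 1.04, rising from 2521 and 3925 to 7096 and 5930, so the direction for this gene depended on the probe set. The mean of its probe sets gave -0.10 with an adjusted p of 0.681. Hsp90b1 had a difference of -0.04 and did not pass. Hsp90ab1, the constitutive cytosolic HSP90, was on no probe set annotated to it alone and was not analysed here.

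Of the mitochondrial chaperonin and its lid, only the lid passed. Hspe1 (HSP10), the lid of the HSP60 chamber, rose from 5395 and 5830 in replicate 1 to 9000 and 7781 in replicate 2, without overlap (0.58, SE 0.11, adjusted p 0.0117 in limma). Its second probe set gave 0.22. Hspd1 (HSP60), the chamber, had 4252 and 3942 against 4028 and 3365, which overlap, at -0.15 with an adjusted p of 0.401. Whether the differences of Hspe1 and Hspd1 differ from each other was not tested. The stretch between their starts is shown because the 2 genes are transcribed away from each other from it. It spans chr1:55087933-55088147 (GRCm38.p6, from RefSeq, strand of Hspe1, 5′ to 3′), 215 bases, with overlapping motifs in capitals.
Hspe1 and Hspd1: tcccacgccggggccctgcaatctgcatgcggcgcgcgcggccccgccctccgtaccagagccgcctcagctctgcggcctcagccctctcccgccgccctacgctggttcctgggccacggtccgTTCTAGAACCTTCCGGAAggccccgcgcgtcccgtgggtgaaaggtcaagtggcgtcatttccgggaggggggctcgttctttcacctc
This stretch holds 3 overlapping matches to the facing pair and 2 to the longer form with 3 units (GAANNTTCNNGAA or TTCNNGAANNTTC).

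The cytosolic chaperonin CCT, which folds actin and tubulin, was close to level. Of its 7 tested subunits only Cct4 passed, with 11556 and 11174 in replicate 1 and 8932 and 8762 in replicate 2 (-0.36, SE 0.09, adjusted p 0.0336 in limma). That call was lost with quantile normalization (-0.25, adjusted p 0.0658) and with 1 median (-0.20, adjusted p 0.189). Cct3 and Cct6a had -0.39 and -0.33 and did not pass; with the Nrp1 group as a term both did, at adjusted p of 0.0240 and 0.0463 in limma. Cct3 passed also without Nrp1-negative replicate 2 (-0.51, adjusted p 0.0479). The other 4, Cct2, Cct5, Cct7 and Cct8, lay between -0.18 and 0.17.

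DNAJB proteins, the HSP40 class that delivers substrates to HSP70, held the densest set of calls. Of 10 tested genes 6 were lower in replicate 2, 2 were higher and 2 did not pass. Of all genes tested, 9.64% were lower and 10.0% higher. The family had a median of -0.80, which was -0.78 after quantile normalization and -0.64 with 1 median. Dnajb1 had 4870 and 4691 in replicate 1 and 2414 and 2717 in replicate 2. Neither replicate reached into the other, the difference was 1.86-fold (-0.90, SE 0.11, adjusted p 0.00197 in limma), and its second probe set gave -1.0. Dnajb4, another partner of HSP70, fell from 817 and 813 to 434 and 460, and Dnajb9, a BiP cofactor of the endoplasmic reticulum that the unfolded protein response raises, from 2925 and 3109 to 1820 and 1511. Dnajb5, Dnajb12 and Dnajb2 were the other genes called lower, at -1.10, -0.80 and -0.79. These calls were lost without the filter on dim probe sets. That of Dnajb2 was also lost without the variance trend and with 1 median (-0.64, adjusted p 0.0648 in limma). Against this direction, Dnajb14, a membrane protein of the endoplasmic reticulum, rose from 301 and 321 to 689 and 688 (1.10, SE 0.16, adjusted p 0.00383), and its second probe set gave 0.58. Dnajb6, which suppresses protein aggregation, rose by 0.36 (adjusted p 0.0453). Its other probe sets gave -0.51, 0.97 and 0.47, and their mean with the brightest did not pass (0.32, adjusted p 0.0962 in limma). Dnajb11, a BiP cofactor, had 0.42 and passed with the Nrp1 group as a term (adjusted p 0.0286).

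The larger DNAJC class, whose members recruit HSP70 to particular tasks and places, had no common direction. Of 24 tested genes 4 were lower in replicate 2, 1 was higher and 19 did not pass, with a median of 0.01. The shares of all genes tested were 9.64% lower and 10.0% higher. Dnajc17 had 9945 and 8360 in replicate 1 and 3837 and 4086 in replicate 2, a 2.30-fold difference without overlap (-1.20, SE 0.12, adjusted p 0.000893 in limma), and a dimmer probe set gave -0.61. Dnajc7 (TPR2), which binds both HSP70 and HSP90, fell from 5406 and 4806 to 2516 and 2561 (-1.0, adjusted p 0.00121). Dnajc9, a histone chaperone, fell from 4308 and 4652 to 2715 and 2369 (-0.82, adjusted p 0.00342). Dnajc14 had -0.45 (adjusted p 0.0332) and was the remaining lower call. That call was lost when its probe sets were averaged (-0.15, adjusted p 0.405) and with 1 median (-0.29, adjusted p 0.149), and another of its probe sets gave 0.44. Dnajc5, a vesicle protein, was called higher at 0.41 but had -0.07 when its probe sets were averaged. Dnajc15 had 0.38 and passed with the Nrp1 group as a term (adjusted p 0.0320). Dnajc3, the inhibitor of stress kinases in the endoplasmic reticulum, had -0.15 and did not pass.

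In the remaining families no gene passed in limma without the Nrp1 term, with brightest probe sets, 1 trimmed mean and all 4 arrays. The 4 DNAJA genes, general HSP70 partners, lay between -0.35 and 0.15, with 12047 and 11619 against 9874 and 11167 for Dnaja1. Dnaja1 had -0.17 on that probe set and passed with the mean of its probe sets (-0.39, adjusted p 0.0296). The 5 BAG genes lay between -0.30 and 0.52. Bag5, at the upper end, had 532 and 398 in replicate 1 and 696 and 637 in replicate 2, with an adjusted p of 0.0833. It passed with the Nrp1 group as a term (0.0403), with 1 median (0.0357) and without Nrp1-negative replicate 1 (0.0473). Bag3, the BAG protein that heat shock factor induces, had 438 and 421 in replicate 1 and 329 and 364 in replicate 2, which did not overlap (-0.30, adjusted p 0.263 in limma). The small heat shock proteins Hspb1 and Hspb6 had -0.23 and 0.10. Hspb11, Hspbap1 and Hspbp1, which are named for heat shock proteins, had 0.13, -0.33 and -0.25.

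Probe sets of a gene did not always agree. Of the 44 tested chaperone genes with more than 1 probe set above the filter, 26 had all of them on one side of 0 in the replicate comparison and 18 did not. Among the 23 genes that passed, 18 had more than 1 such probe set, of which 12 moved one way. The 6 that did not were Cct4, Dnajb6, Dnajc5, Dnajc14, Hsp90aa1 and Hspa4l.

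Motifs for heat shock factor were not confined to the genes that changed. The letters GAANNTTC or TTCNNGAA, each its own reverse complement, occur in the 250 bases before a start site of 17 of the 72 chaperone genes in the RefSeq promoter table (23.6%) and of 14.5% of its 27025 genes, or 12.8% of its windows. The longer form with 3 units was found, on either strand, for Hspd1, Hspe1 and Dnajb6, 3 of 72, beside 0.514% of all genes and 0.466% of windows. Among chaperone genes lower in replicate 2, 4 of 14 in the table hold the pair (Dnajb4, Hspa1a, Hspa1b and Hsph1), among those higher 2 of 5 (Dnajb6 and Hspe1), and among those that did not pass 9 of 39. These are matches to letters in a window.

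Genes that work beside the chaperones were read from lists; of all genes tested, 9.64% were called lower in replicate 2 and 10.0% higher. Of 13 tested cochaperones of HSP90, 4 were lower in replicate 2 and 1 was higher. Stip1 (HOP), which bridges HSP70 and HSP90, had 1716 and 1901 in replicate 1 and 1249 and 1130 in replicate 2 (-0.60, adjusted p 0.0143 in limma). Ahsa1 (-0.55), which stimulates the ATPase of HSP90, Stub1 (-0.59), a ubiquitin ligase for chaperone clients, and St13 (-0.45) were lower too, and Sugt1 (0.51) was higher. In the list of prefoldin, Tcp1 and phosducin-like genes, which work with CCT, 2 of 10 were lower, Pfdn2 at -1.58 and Pfdn6 at -0.67. Of 24 genes of folding and stress response in the endoplasmic reticulum 5 were lower (Pdia3, Pdia4, Hyou1, Sel1l and Ppib, from -0.86 to -0.39) and 3 higher (Pdia6, Sdf2l1 and Manf, from 0.45 to 0.62). Neither Xbp1, Ddit3 nor Herpud1 passed.

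Among mitochondrial protease and import genes 1 of 11 was lower (Clpp) and 1 higher (Clpx), and among ubiquitin and proteasome genes 1 of 13 was lower (Psmb7) and 4 higher (Sqstm1, Psmd12, Psmc1 and Psma1). Of heat shock factor genes, Hsf2 had 89.96 and 83.5 in replicate 1 and 153 and 150 in replicate 2 and did not pass (adjusted p 0.146), and Hsbp1, which binds heat shock factor, was higher by 0.64. No gene of these 6 lists passed in the Nrp1 comparison, with or without the block.

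Immediate early genes, which cells switch on within a short time of stimulation or of tissue dissociation, moved with the inducible chaperones. Of 24 tested, 14 were lower in replicate 2 and 2 higher (Egr2 at 0.76 and Egr3 at 0.67), beside 9.64% and 10.0% of all genes. The summed intensity of the list was 159649 and 159581 in replicate 1 and 85050 and 88619 in replicate 2. Jun had 9356 and 7121 in replicate 1 and 681 and 615 in replicate 2, a log2 difference of -3.62, close to those of Hspa1a and Hspa1b. Junb had -2.36, Ppp1r15a -1.92 and Fos -1.43. The part that these genes, the myeloid markers, the 3-prime ratio and the scaling of the arrays have in the chaperone differences was not tested.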

How the data were processed

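Per the labels' protocols, RNA was extracted with Trizol from FACS-sorted spleen cells and labelled with biotin for 1-colour Affymetrix arrays. The deposited values are probe set intensity signals on a linear scale, made by the authors with MAS5 per the submitters' processing notes. No version of it is given in the sources used here. The trimmed mean of each array as deposited (2% off each end) was 500.003 on both arrays of replicate 1 and 150.001 on both of replicate 2, so all arrays were scaled to a trimmed mean of 500. Analysis used log2(intensity + 18.3), the pseudocount being 0.25 of the mean array median, so fold changes of dim genes are understated.

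Of 45101 probe sets, 34945 are listed with 1 gene in the platform annotation, 932 with several, 9160 with none, and 64 are controls. The upper 22519 probe sets by mean level (from percentile 50) were kept, and a gene was read from its brightest one. Tests used R 4.3.3 and limma 3.58.1 (mean-variance trend, two-sided, Benjamini-Hochberg over all genes tested, threshold 0.05), with 2 arrays against 2; an exact permutation test could not go below 0.333. Nrp1 was tested without a block and, as the replicate number marks a technical difference in the files, with it. The models were tested on simulated data. The labels do not state whether same-group arrays are from different mice, so p-values measure only the spread between these arrays, which may be technical, and their number limits the precision. In bulk cells, a change in the cells present and a change per cell cannot be told apart.

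Genes were named by a rule: fixed anchors of each family, every gene that passed, up to 8 per direction with the largest differences among genes whose groups do not overlap, and 3 per direction within each replicate number. Members and lists were chosen with earlier results of these data known. Promoter sequences are RefSeq's, GRCm38.p6. Drawings were made with matplotlib 3.10.9.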

Additional observations from a re-analysis of the deposited data

How the results depend on the processing

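The count of chaperone genes passing in the Nrp1 comparison was 0 under every alternative that kept all arrays. They changed the scaling, pseudocount, filter, probe set rule or variance trend, or counted the conflicting array as Nrp1-positive. The replicate block was added alone and, chosen after seeing the data, with each of the changes of processing. Without the block these fits called 0 of all genes, so a count of 0 chaperone genes could not come out otherwise in them. With the block they called 46 to 202 genes, or 0 without the variance trend. The median Nrp1 difference was -0.029 with quantile normalization, -0.056 with 1 median, -0.018 with a larger pseudocount, -0.024 without a filter, -0.0065 with the mean of probe sets and 0.042 with the conflicting array counted as positive; leaving out 1 array gave -0.093 to 0.070. Deviations of same-numbered arrays from their group means correlated at 0.73, and the numbers pair only 2 arrays each way.

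Between replicate numbers, 12 chaperone genes passed without the variance trend, and 7 with the Nrp1 group as a term and no trend (chosen after seeing the data). Leaving out 1 array gave 14 (without Nrp1-negative replicate 2) to 17, a lone array being assumed to vary like the others, and a median of -0.135 to -0.053, the last without Nrp1-positive replicate 2. Scaling to 1 median turned the median to 0.025, with all genes at 0.150. With the mean of probe sets Dnajc5 had -0.074 and Hspa4 -0.44. Of 668 values for named genes, 593 kept their side of the threshold, 61 lost the call, 12 gained it and 2 reversed with a call. Direction was kept less often: 21 of the 56 named genes changed sign under at least 1 setting. In the Nrp1 comparison, 44 of the 56 named genes changed sign under at least 1 setting.

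No detection calls were used, so values near or below the filter level have no stated background limit.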
